A study of Homo sapiens with 6 samples.

Results

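The genes described here encode the machinery that makes ribosomes: RNA polymerase I, the small nucleolar ribonucleoproteins (snoRNPs) that modify ribosomal RNA, and the factors that cut and fold the precursor into the small and large subunits. They were taken by symbol from a list of 44 genes of nucleolar rRNA processing, snoRNPs and RNA polymerase I, and all 44 were found among the 58735 genes of the deposited count table. After a filter on low counts 43 of them were tested among 13787 genes in all. The exception was NOP2, a methyltransferase of the large subunit rRNA.

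The cells were of the human line ARPE-19 (ARPE19 in the labels), which was derived from retinal pigment epithelium (RPE). Libraries labelled NC came from cells of the wild-type genotype (3 libraries), and those labelled OE CD51 ICD came from cells overexpressing CD51-ICD (3 libraries). CD51 is integrin alpha V, encoded by ITGAV, and ICD is not spelled out in the labels. The sources used here do not give the vector, its promoter or whether the cells were a clone. Nor do they tell if the replicates were grown apart, so each p-value rests on a spread between libraries that may be technical.

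In the nucleolus, RNA polymerase I transcribes the ribosomal DNA repeats into a long precursor, with the help of the factors UBTF, RRN3 and the promoter selectivity complex that contains TAF1D. Guide RNAs of the box C/D class direct 2′-O-methylation by fibrillarin, and those of the box H/ACA class direct pseudouridylation by dyskerin. The small subunit processome and separate large subunit factors then cleave and fold the RNA together with ribosomal proteins, and the whole programme is known to follow growth signals and MYC. The comparison asks how these genes differed between the OE CD51 ICD and NC libraries.

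Total counts ran from 13616694 to 16934668 per library. ITGAV was at 113, 92.7 and 89.3 CPM (counts scaled by library size and TMM factor) in NC replicates 1, 2 and 3 and at 436, 536 and 371 CPM in OE CD51 ICD replicates 1, 2 and 3, so the level of this gene was higher in every OE CD51 ICD library. Reads of the construct and of the endogenous gene are summed in these values, so the source of the added reads is not shown. Of 14 RPE markers, the keratins KRT8 and KRT18 carried nearly all of the summed level (5196 to 5650 CPM in NC and 4684 to 5405 CPM in OE CD51 ICD), RPE65 and TTR had no count in any library, and TYR and DCT had at most 18 counts over the 6 libraries. Other RPE markers moved in both directions: PMEL, RLBP1 and PAX6 rose (log2 0.80, 0.81 and 0.59) and MITF fell by 0.56. Of 9 microglia and macrophage markers 7 were also at or under 18 counts, with C1QA and C1QB at 0, and the summed level of that list was 3.31 to 4.67 CPM in NC and 31.4 to 37.1 CPM in OE CD51 ICD, of which CSF1R was 2.57 to 4.18 CPM in NC and nearly all in OE CD51 ICD. Among endothelial, fibroblast and neuronal markers, the genes at or under that count numbered 4 of 6, 4 of 5 and 4 of 6, and PDGFRB made nearly all of the fibroblast sum (213 to 238 CPM in NC and 374 to 415 CPM in OE CD51 ICD). The part of these markers in the results was not tested.

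Ribosome biogenesis genes were mostly lower in the OE CD51 ICD libraries. Of the 43 tested, 26 fell, only TAF1D rose and 16 did not pass (edgeR's quasi-likelihood test, adjusted p under 0.05). The background was 25.8% of all 13787 genes lower and 25.2% higher, against 60.5% of these genes lower. The same background holds for the counts by role below. Their median log2 fold change was -0.37, where that of all genes tested was 0.01, and 37 of the 43 had a negative fold change. The falls were moderate: 4 genes (POLR1E, RRP9, BOP1 and NOP16) fell by at least 2-fold, as did 5.83% of all genes tested. In bulk RNA, less RNA per cell and fewer cells with a high level cannot be told apart.

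The 3 libraries of one group lay wholly below or above those of the other for most of the genes. In 26 all OE CD51 ICD values were below all NC values and in 1 they were all above, against 29.5% and 28.0% of all genes tested. Together the 44 genes took 0.320% ± 0.0111 (SD, n = 3) of all counts in NC and 0.213% ± 0.00502 (SD, n = 3) in OE CD51 ICD, with ranges of 0.308% to 0.329% and 0.207% to 0.217%. Without NPM1 and NCL, which hold the most counts, the shares were 0.243% ± 0.00277 and 0.154% ± 0.00378. Spread between replicates was small, with a median coefficient of variation over the tested genes of 5.78% in NC and 9.99% in OE CD51 ICD, and it was widest in UTP15, a gene with few counts.

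**Figure D1:**
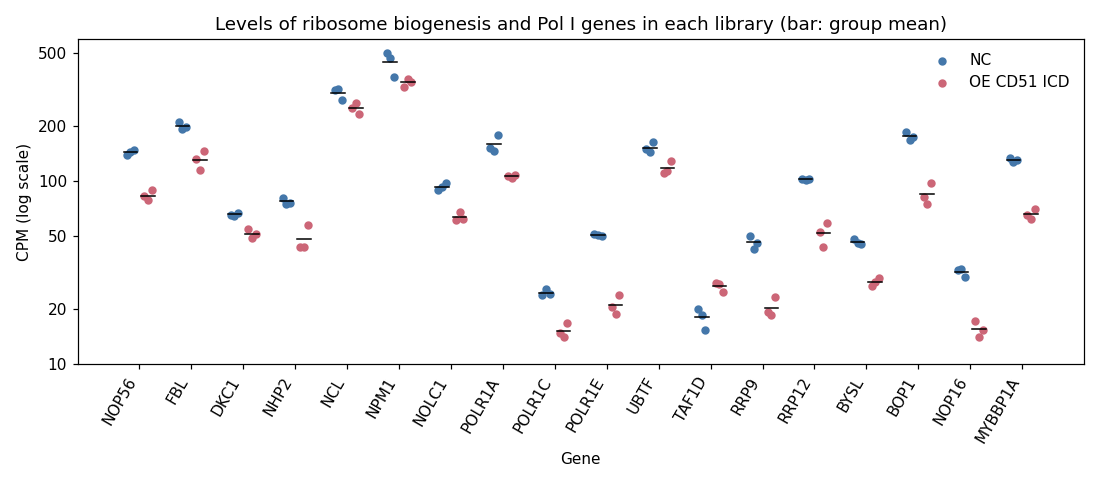
Points are the CPM of each of the 6 libraries, on a log axis, for 18 genes described with their values in every library, with NC in blue and OE CD51 ICD in red; black bars are group means. In 17 genes the red points lie below all blue points, and in TAF1D they lie above them.

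The promoters of these genes were searched because the genes moved together and because MYC and MAX, known as regulators of ribosome synthesis, bind the hexamer CACGTG (the canonical E-box, which reads the same on both strands). RefSeq promoter sequences (GRCh38.p14, 250 bases before to 50 after each start) were had for 37 of the 44 genes and not for BOP1, DDX18, NOLC1, NOP58, POLR1E, RRP12 and RRS1. The hexamer was present in 16 of the 37 (43.2%), in 12.6% of the 10043 tested symbols that had a promoter, and in 8.77% of all 27305 symbols of the table. Among the 9 genes that fell and hold it, all copies lay close to the start site, as the windows of 30 bases below show, 5′ to 3′ on the gene's strand with the hexamer in capitals. They are printed to let the shared core and its differing flanks be compared.
RRP9: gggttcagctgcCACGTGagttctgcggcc
MYBBP1A: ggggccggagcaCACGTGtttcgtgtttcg
FBL: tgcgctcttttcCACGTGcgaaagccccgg
PES1: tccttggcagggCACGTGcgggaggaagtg
BYSL: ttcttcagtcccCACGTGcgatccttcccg
UTP4: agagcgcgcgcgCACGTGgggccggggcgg
NOP14: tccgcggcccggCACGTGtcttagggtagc
UTP20: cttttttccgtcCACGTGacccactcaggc
NAT10: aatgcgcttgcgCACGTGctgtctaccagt

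The copy in RRP9 (chr3:51941892-51941921 for the window, minus strand) began 5 bases before the start site and that in NAT10 (chr11:34105602-34105631, plus strand) 15 bases before it. In UTP4 (chr16:69132621-69132650, plus strand) and UTP20 (chr12:101280083-101280112, plus strand) the hexamer began 16 and 10 bases before the start. In FBL (chr19:39846356-39846385, minus strand) it began at base 7 of the transcript, and in PES1 (chr22:30591880-30591909, minus strand) and NOP14 (chr4:2963374-2963403, minus strand) at bases 14 and 16. The copies in MYBBP1A (chr17:4555340-4555369, minus strand) and BYSL (chr6:41921515-41921544, plus strand) began at bases 28 and 29. By its presence, 9 of 15 tested genes with it fell and 12 of 21 without it fell, with median log2 fold changes of -0.40 and -0.35. The other genes with the hexamer were DDX21, GAR1, GNL3, LTV1, NOP10 and WDR43, which did not pass the test, and NOP2, which was not tested. Their copies began from 31 bases before the start (DDX21) to base 36 of the transcript (NOP2), except a further NOP10 copy 170 bases before it. Closeness to the start was thus not particular to the genes that fell. A match describes these letters only.

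The ETS-type core CCGGAAG, searched on both strands (CTTCCGG on the other), was present in 14 of the 37 genes (37.8%) and in 22.4% of tested symbols. Of the 14 genes with it 6 fell, and 15 of 22 without it fell. The stretches printed next show the 200 bases from 250 to 51 before the start of FBL and RRP9, as examples of these promoters, with CCGGAAG in capitals. The E-box copies of FBL and RRP9 lie nearer the start, outside these stretches.
FBL: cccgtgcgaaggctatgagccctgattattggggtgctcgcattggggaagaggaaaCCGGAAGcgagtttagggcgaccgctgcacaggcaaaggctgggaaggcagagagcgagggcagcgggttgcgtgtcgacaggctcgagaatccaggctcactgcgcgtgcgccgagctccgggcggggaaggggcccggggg
RRP9: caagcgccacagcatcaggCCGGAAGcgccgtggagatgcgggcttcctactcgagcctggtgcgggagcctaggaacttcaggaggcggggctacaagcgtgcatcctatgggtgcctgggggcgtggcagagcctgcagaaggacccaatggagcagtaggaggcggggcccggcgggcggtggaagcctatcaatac

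The FBL stretch is chr19:39846430-39846629 and the RRP9 stretch chr3:51941955-51942154, both GRCh38.p14 on the minus strand. Their GC contents are 66.5% and 66.0%, and neither overlaps an exon of GENCODE 29. The motif begins 193 bases before the start of FBL and 231 bases before that of RRP9.

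RNA polymerase I genes held the largest single fall and the only rise. Of 7 genes, 5 fell (POLR1E, POLR1C, POLR1A, UBTF and POLR1B), TAF1D rose and RRN3 did not pass. POLR1E (ENSG00000137054, chr9:37485935-37503697), a subunit of the dimer that associates with the polymerase during initiation, was at 51.7, 51.1 and 50.3 CPM in NC replicates 1, 2 and 3 and at 20.7, 18.8 and 24.0 CPM in OE CD51 ICD replicates 1, 2 and 3. The NC values were nearly identical and every OE CD51 ICD value was under 50% of them. Its fitted level in OE CD51 ICD was 41.4% of that in NC (log2 -1.27 ± 0.11 SE, adjusted p = 4.40e-11).

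POLR1A (ENSG00000068654, chr2:86020216-86106155), the largest subunit and part of the catalytic centre, was at 152, 146 and 180 CPM in NC and at 107, 104 and 108 CPM in OE CD51 ICD. The groups did not overlap, and the log2 fold change was -0.58 ± 0.09 (SE, adjusted p = 1.48e-06). POLR1B, the second largest subunit, fell less, from 27.8 ± 1.08 to 21.8 ± 1.25 CPM (log2 -0.35, adjusted p = 0.0113). The POLR1B call did not hold when NC replicate 2 or OE CD51 ICD replicate 1 was left out (adjusted p = 0.0513 and 0.0792, in a range of 3.68e-04 to 0.0792 over all alternatives). POLR1C, a subunit shared with RNA polymerase III, was at 23.8, 25.8 and 24.3 CPM in NC and at 14.8, 14.1 and 16.8 CPM in OE CD51 ICD (log2 -0.69 ± 0.13 SE, adjusted p = 3.43e-05). Exons of other genes, YIPF3 and XPO5 among them, cover 18.2% of its exon bases, and the use of strand in counting is not given, so reads there could be split.

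UBTF (ENSG00000108312, chr17:44205033-44221626) encodes the upstream binding factor that keeps ribosomal DNA open. It was at 150, 144 and 164 CPM in NC and at 110, 113 and 130 CPM in OE CD51 ICD, a smaller fall with groups that did not overlap (log2 -0.37 ± 0.09 SE, adjusted p = 5.37e-04). RRN3, the factor that brings the polymerase to the promoter, was at 11.3 ± 2.76 and 11.7 ± 2.33 CPM and did not pass (log2 0.04 ± 0.18 SE). The 3 genes named as its pseudogenes summed to 3.50 CPM on average over the 6 libraries, beside 11.5 CPM for RRN3. They could take or give reads.

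TAF1D (ENSG00000166012, chr11:93729948-93784391), a subunit of the promoter selectivity complex, was at 20.1, 18.6 and 15.3 CPM in NC and at 27.6, 27.5 and 24.9 CPM in OE CD51 ICD. All OE CD51 ICD libraries were above all NC libraries, and the log2 fold change was 0.57 ± 0.13 (SE, adjusted p = 3.78e-04). It hosts 8 snoRNA genes, the most of any gene in the group, and other genes' exons cover 17.3% of its exon bases. It also lies on chromosome 11, where 40.4% of 792 tested genes were higher, against 24.2% elsewhere, and where the median log2 fold change was 0.21. The part of these features in its rise was not tested. The other chromosome 11 genes of the group were DDX10 (log2 0.24 ± 0.17 SE, did not pass) and NAT10, described with the small subunit genes.

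**Figure D2:**
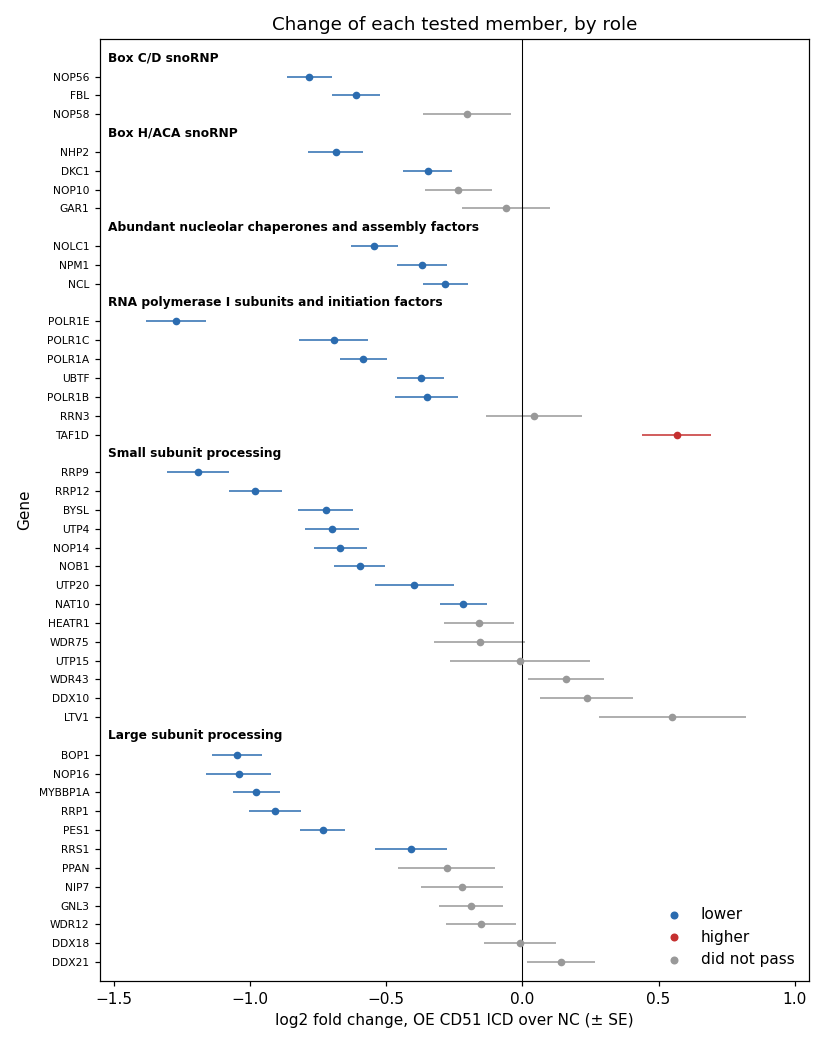
Horizontal axis: log2 fold change of OE CD51 ICD over NC with its standard error for each of the 43 tested genes, by role; blue genes fell, the red gene rose and grey genes did not pass. Estimates run from -1.27 in POLR1E to 0.57 in TAF1D, and falls occur in each of the 6 roles.

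Of the box C/D snoRNP, which carries out 2′-O-methylation, 3 core genes were among the 44, and 2 of these were lower. SNU13, a further core gene of the complex, was counted in the further small subunit list. It fell from 197 ± 4.76 to 129 ± 10.2 CPM (log2 -0.62, adjusted p = 2.24e-07). NOP56 (ENSG00000101361, chr20:2652145-2658393), a scaffold protein, was at 139, 144 and 148 CPM in NC and at 82.7, 78.5 and 89.5 CPM in OE CD51 ICD. The NC libraries were well separated from the others, with a log2 fold change of -0.78 ± 0.08 (SE, adjusted p = 4.19e-09). FBL (ENSG00000105202, chr19:39834458-39846414), fibrillarin, the methyltransferase itself, was at 210, 193 and 198 CPM in NC and at 132, 115 and 147 CPM in OE CD51 ICD. Its log2 fold change was -0.61 ± 0.09 (SE, adjusted p = 9.01e-07). NOP58, the partner of NOP56 in the complex, had fewer counts and did not pass (18.7, 12.7 and 12.3 CPM against 11.7, 14.3 and 12.2 CPM; log2 -0.20 ± 0.16 SE). NC replicate 1 stood above the other NC libraries in that gene.

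In the box H/ACA snoRNP 2 of 4 core genes fell. NHP2 (ENSG00000145912, chr5:178149460-178153967), an RNA-binding subunit, was at 81.1, 75.5 and 76.4 CPM in NC and at 43.8, 43.7 and 57.6 CPM in OE CD51 ICD (log2 -0.68 ± 0.10 SE, adjusted p = 1.49e-06). OE CD51 ICD replicate 3 was the highest of its group and still below NC, and exons of RMND5B cover 27.4% of the gene's exon bases. DKC1 (ENSG00000130826, chrX:154762742-154777689), dyskerin, the pseudouridine synthase, was at 65.4, 64.8 and 67.4 CPM in NC and at 54.5, 49.1 and 51.7 CPM in OE CD51 ICD. That is a fall by 0.35 on the log2 scale (SE 0.09, adjusted p = 0.00190). NOP10 did not pass at 22.2 ± 0.735 and 18.9 ± 1.37 CPM (adjusted p = 0.111), although its libraries did not overlap. GAR1 was at 10.3 ± 1.31 and 9.88 ± 0.799 CPM and did not pass (log2 -0.06 ± 0.16 SE).

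The 3 abundant nucleolar proteins all fell. NPM1 (ENSG00000181163, chr5:171387116-171411137), nucleophosmin, a histone and ribosome chaperone, was at 502, 470 and 371 CPM in NC and at 328, 364 and 348 CPM in OE CD51 ICD. NC replicate 3 was the lowest of its group and lay just above OE CD51 ICD replicate 2, and the log2 fold change was -0.37 ± 0.09 (SE, adjusted p = 0.00112). There are 45 genes in the table named as its pseudogenes, which could take or give reads. NCL (ENSG00000115053, chr2:231453531-231483641), nucleolin, an RNA-binding protein of the nucleolus, was at 314, 321 and 278 CPM in NC and at 250, 266 and 234 CPM in OE CD51 ICD (log2 -0.28 ± 0.08 SE, adjusted p = 0.00462). NOLC1, a chaperone of snoRNPs, was at 89.3, 92.7 and 97.3 CPM in NC and at 61.6, 67.5 and 62.4 CPM in OE CD51 ICD, and fell most of these 3 (log2 -0.54 ± 0.09 SE, adjusted p = 4.78e-06). NPM1 was not called by limma on unfiltered log2(FPKM + 1) values (adjusted p = 0.0846, the highest of its alternatives, which began at 1.94e-05).

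Of 14 small subunit genes 8 fell and 6 did not pass. RRP9 (ENSG00000114767, chr3:51933430-51941941), the protein that binds the U3 snoRNA, was at 50.5, 42.9 and 46.0 CPM in NC and at 19.2, 18.7 and 23.2 CPM in OE CD51 ICD. No OE CD51 ICD library came near the NC range, and the fitted level was 43.8% of NC (log2 -1.19 ± 0.11 SE, adjusted p = 4.32e-10). RRP12 (ENSG00000052749, chr10:97356358-97426076), needed for export and late maturation, was at 103, 101 and 103 CPM in NC and at 52.9, 43.9 and 59.2 CPM in OE CD51 ICD. The NC values were nearly equal, while the OE CD51 ICD values varied more (SD 0.982 and 7.68 CPM; log2 -0.98 ± 0.10 SE, adjusted p = 7.94e-10). BYSL (ENSG00000112578, chr6:41921188-41933046), bystin, a late pre-40S factor, was at 48.6, 45.9 and 45.3 CPM in NC and at 26.9, 28.2 and 29.7 CPM in OE CD51 ICD (log2 -0.72 ± 0.10 SE, adjusted p = 6.73e-07).

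UTP4, of the subcomplex that joins the nascent transcript first, NOP14, a processome scaffold, and NOB1, the nuclease that makes the final cut of the 18S rRNA, fell by 0.70, 0.67 and 0.60 on the log2 scale. Other genes' exons cover 17.1% of NOP14, where NOP14-AS1 is antisense, and 20.2% of NOB1. UTP20, a large scaffold, went from 19.1 ± 2.43 to 14.5 ± 2.56 CPM (adjusted p = 0.0241), with overlapping groups. The UTP20 call was lost without NC replicates 1 or 3 and without OE CD51 ICD replicates 1 or 3 (adjusted p = 0.0691, 0.0904, 0.128 and 0.0799; 3.08e-04 to 0.190 over its alternatives). NAT10, which acetylates the small subunit rRNA, showed the smallest called change, from 76.5 ± 3.43 to 65.8 ± 2.97 CPM (log2 -0.22 ± 0.09 SE, adjusted p = 0.0397). Its call was lost in 12 of 21 alternatives (adjusted p = 0.00687 to 0.116), among them the omission of NC replicates 2 or 3 (adjusted p = 0.0885 and 0.116) and of OE CD51 ICD replicates 1, 2 or 3 (adjusted p = 0.0878, 0.106 and 0.0706).

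The 6 small subunit genes that did not pass had NC means of at most 28.9 CPM, the level of HEATR1. HEATR1, WDR75, UTP15 and WDR43, which are partners of UTP4 in early transcription-coupled assembly, had log2 fold changes of -0.16, -0.16, -0.01 and 0.16. DDX10, an RNA helicase, was at 0.24. LTV1, a late factor of the pre-40S particle, was at 3.30, 1.84 and 3.11 CPM in NC and at 2.70, 4.58 and 4.94 CPM in OE CD51 ICD (log2 0.55 ± 0.27 SE, adjusted p = 0.0880). OE CD51 ICD replicate 1 lay within the NC range, and without that library LTV1 passed as higher (adjusted p = 0.0172).

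Large subunit genes were divided, with 6 lower and 6 that did not pass. BOP1 (ENSG00000261236, chr8:144262102-144291370), a member of the PeBoW complex with PES1 and WDR12, was at 185, 168 and 174 CPM in NC and at 81.6, 75.5 and 98.1 CPM in OE CD51 ICD. The fitted level was 48.4% of NC (log2 -1.05 ± 0.09 SE, adjusted p = 5.90e-11). PES1 fell from 170 ± 4.11 to 102 ± 8.87 CPM (log2 -0.73, adjusted p = 1.48e-08), while WDR12 was at 20.8 ± 1.20 and 18.7 ± 1.94 CPM and did not pass (log2 -0.15 ± 0.13 SE). The 3 partners thus had unequal estimates, and differences between them were not tested.

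NOP16 (ENSG00000048162, chr5:176383938-176388975), an early large subunit factor, was at 32.9, 33.2 and 30.1 CPM in NC and at 17.2, 14.1 and 15.5 CPM in OE CD51 ICD (log2 -1.04 ± 0.12 SE, adjusted p = 2.10e-08). Some of its exon bases are shared with HIGD2A and ARL10. MYBBP1A (ENSG00000132382, chr17:4538897-4555631), a nucleolar protein that also binds transcription factors, was at 134, 127 and 130 CPM in NC and at 65.5, 62.4 and 71.0 CPM in OE CD51 ICD. Its OE CD51 ICD values were all close to 50% of the NC values (log2 -0.98 ± 0.08 SE, adjusted p = 5.97e-11). RRP1 fell by 0.91 on the log2 scale (adjusted p = 3.16e-09). RRS1, which helps bring the 5S particle into the subunit, fell by 0.41 (adjusted p = 0.0107), a call lost without OE CD51 ICD replicate 1 (adjusted p = 0.0582), with the length trend removed (0.0807) and with the GC trend removed (0.0928; 0.00418 to 0.137 over its alternatives).

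The RNA helicases DDX18 and DDX21 had log2 fold changes of -0.01 ± 0.13 and 0.14 ± 0.13 (SE) and did not pass. GNL3, nucleostemin, a nucleolar GTPase, was at 34.1 ± 4.64 and 29.9 ± 2.89 CPM (log2 -0.19 ± 0.12 SE, adjusted p = 0.178). Without NC replicate 3, its lowest NC library, GNL3 passed as lower (adjusted p = 0.0419). NIP7 was at 20.6 ± 2.63 and 17.7 ± 4.16 CPM and PPAN at 9.20 ± 1.27 and 7.61 ± 1.35 CPM, and neither passed. PPAN shares 59.8% of its exon bases with P2RY11 or the PPAN-P2RY11 read-through gene. NOP2 was at 0.373 ± 0.230 and 0.710 ± 0.156 CPM. Exons of AC006064.6, itself at 0 CPM, cover 54.4% of the exon bases of NOP2. How reads shared by overlapping genes were counted is not given, so the levels of NOP2 and PPAN may leave out such reads.

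Per length, the levels of the genes spanned a wide range. On the deposited FPKM scale counts are divided by gene length and by a constant of each library, which was 0.961 to 1.046 times its total count. NPM1 was the highest in NC at 116 ± 17.4, followed by FBL at 91.5 ± 3.87, NHP2 at 51.1 ± 1.84, BOP1 at 47.0 ± 2.17 and NCL at 43.6 ± 3.20. The last 2 of these lay within their combined spread. In OE CD51 ICD the order at the top was NPM1 (89.4 ± 3.99), FBL (59.7 ± 8.13), NCL (35.6 ± 1.89), NOP10 (33.7 ± 2.86) and NHP2 (31.7 ± 5.54), the last 3 within their spread. BOP1 went from the 4th to the 6th place and POLR1E from the 15th to the 21st. UTP15 and DDX10 were the lowest of the tested genes in both groups, at 0.652 ± 0.198 and 1.03 ± 0.179 FPKM in NC.

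The size of the fall went with base composition. Over the 43 genes, the log2 fold change had a Pearson r of -0.76 and a Spearman rho of -0.80 with the GC content of the longest transcript. Over all 13781 tested genes with a GC value these were -0.23 and -0.32. The size of the fall also went with level. Against log2 mean CPM, the log2 fold change of the 43 genes had r = -0.53 and rho = -0.59. Over all 13787 genes tested these were -0.08 and -0.12. The genes share the 6 libraries, and GC content was also related to level within the group (r = 0.46 with log2 mean CPM), so these are descriptions. The parts of GC content and level were not told apart. Of 19 genes with at least 50% GC, 18 fell (PPAN was the exception), where 39.9% of all tested genes in that range fell. Of 24 genes under 50% GC, 8 fell and TAF1D rose, where 13.9% of all tested genes in that range fell.

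Libraries of one group also differed along this axis. Over the same 43 genes, the deviation of OE CD51 ICD replicate 2 from its group mean had r = -0.72 with GC content and that of replicate 3 had r = 0.69, while the other 4 libraries ranged from -0.23 to 0.32. Deviations within a group cancel out for each gene, so the opposite values of replicates 2 and 3 are not separate observations. With each library's GC trend over all genes removed, 30 of the 43 fell (69.8%) and TAF1D rose, against 25.1% of all genes lower and 24.6% higher. Under that setting 16 of the 19 GC-rich genes fell (background 27.8%) and 14 of the 24 others (background 22.8%), the median was -0.43, and r within the group was -0.44. The genes gained under that setting were NOP58, NOP10, HEATR1, WDR75, WDR12 and GNL3, all lower, and the 2 no longer called were NAT10 and RRS1 (adjusted p = 0.0655 and 0.0928). POLR1E was at -1.23, RRP9 at -0.94, BOP1 at -0.75 and TAF1D at 0.33 (adjusted p = 0.00963).

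**Figure D3:**
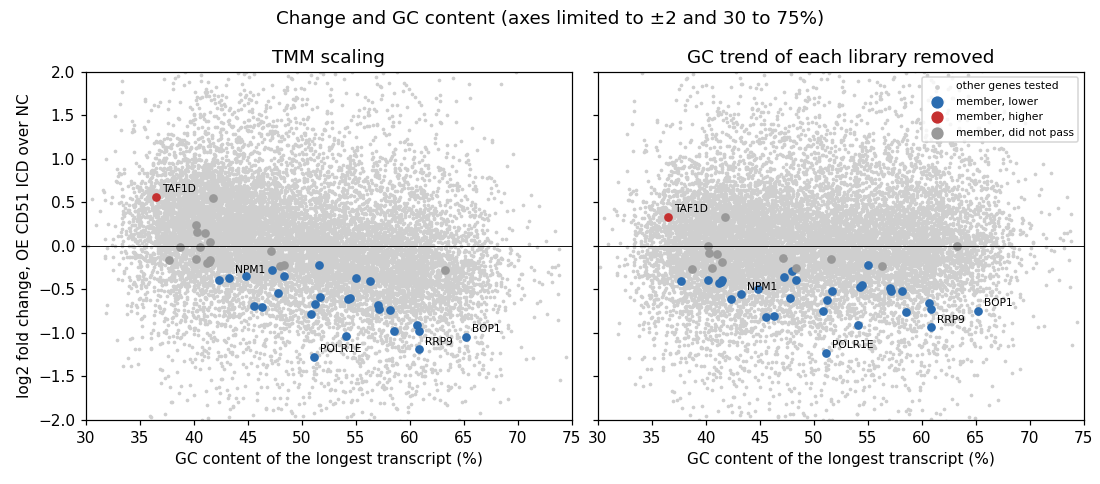
Each point is a tested gene, with GC content of its longest transcript (%) on the horizontal axis and the log2 fold change of OE CD51 ICD over NC on the vertical axis, before (left) and after (right) the GC trend of each library was removed; grey points are all other genes. At left 18 of 19 ribosome biogenesis genes over 50% GC fell and 8 of 24 under it; at right these counts are 16 and 14.

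Other genes of the same pathway, in lists chosen with earlier results of these data known, were also more often lower than higher. Of 135 genes in 6 lists that hold none of the 44, 132 were tested, of which 63 fell, 11 rose and 58 did not pass (47.7% lower, where 25.8% of all genes tested were lower and 25.2% higher), with a median log2 fold change of -0.31. With the GC trend removed 73 fell and 5 rose (25.1% and 24.6% of all genes), and 6 rose without NC replicate 3 or without OE CD51 ICD replicate 2. Before that removal, the lists without the MYC and MAX network had 59 of 123 tested genes lower and 8 higher. Among 9 further genes of the RNA polymerase I system 1 fell (11.1%, under the share of all genes) and 1 rose. With the GC trend removed 4 fell, the added ones being POLR1D, POLR1F and TAF1B. TCOF1, treacle, which links UBTF and the polymerase at ribosomal DNA, was at 149, 135 and 141 CPM in NC and at 61.6, 61.6 and 73.7 CPM in OE CD51 ICD (log2 -1.11 ± 0.09 SE, adjusted p = 1.10e-11). POLR1G, a subunit listed under its older symbol CD3EAP, rose from 7.79 ± 0.400 to 14.7 ± 2.35 CPM (log2 0.91, adjusted p = 2.07e-05). Exons of PPP1R13L and ERCC1 cover 45.1% of POLR1G.

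Of 41 further small subunit genes 21 fell (51.2%) and 3 rose, against 25.8% and 25.2% of all genes tested. DHX37, an RNA helicase that acts on the U3 snoRNA, fell from 101 ± 3.19 to 40.9 ± 5.63 CPM (log2 fold change of -1.30 ± 0.10 SE, adjusted p = 2.22e-12). IMP3, a U3 snoRNP protein, was at 45.5 ± 4.26 and 22.8 ± 2.75 CPM (adjusted p = 1.44e-08), and 59.3% of its exon bases are shared with other genes, SNX33 among them. BMS1, a GTPase of the processome, rose from 21.5 ± 0.709 to 29.5 ± 4.20 CPM (log2 0.46, adjusted p = 0.00205). Its call was lost when the GC trend was removed together with a replicate block (adjusted p = 0.0583). The 20 genes named as pseudogenes of BMS1 summed to 3.90 CPM on average over the 6 libraries, beside 25.5 CPM for BMS1. The other 2 higher genes were MPHOSPH10 and DDX52. The MPHOSPH10 call was lost when NC replicate 3 or OE CD51 ICD replicate 2 was omitted (adjusted p = 0.102 and 0.0559), and that of DDX52 without those libraries or NC replicate 2 (0.108, 0.117 and 0.0645). With the GC trend removed neither passed (adjusted p = 0.0767 for MPHOSPH10 and 0.313 for DDX52).

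Of 50 further large subunit genes 26 fell (52.0%) and 2 rose, against 25.8% and 25.2% of all genes tested. NOC2L was at 246 ± 11.3 and 120 ± 12.5 CPM and MRTO4 at 96.5 ± 7.16 and 47.6 ± 4.99 CPM, log2 fold changes of -1.04 and -1.02. The 2 higher genes were EFL1, a GTPase of late maturation (adjusted p = 0.0355), and SDAD1 (adjusted p = 0.0362). The SDAD1 call was lost without NC replicates 1 or 3 and without OE CD51 ICD replicates 2 or 3 (adjusted p = 0.0621, 0.127, 0.231 and 0.0595). EFL1 was no longer called without NC replicates 1 or 3 or OE CD51 ICD replicates 1 or 2 (adjusted p = 0.0678, 0.123, 0.0574 and 0.181). With the GC trend removed SDAD1 and EFL1 did not pass (adjusted p = 0.321 and 0.134).

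Among 9 snoRNP assembly genes 3 fell (33.3%) and none rose, and 5 fell with the GC trend removed. RUVBL1 and RUVBL2, the paired ATPases of the R2TP chaperone, fell by 0.79 and 0.72 on the log2 scale, the second from 296 ± 16.3 to 180 ± 19.6 CPM. Of 14 genes of the RNA exosome and rRNA decay 8 fell (57.1%) and 2 rose. For both lists the background was 25.8% of all genes tested lower and 25.2% higher, or 25.1% and 24.6% with the GC trend removed. EXOSC5, a core subunit, was at 31.4, 33.6 and 27.2 CPM in NC and at 11.7, 10.7 and 13.4 CPM in OE CD51 ICD (log2 -1.36 ± 0.13 SE, adjusted p = 5.18e-10), and EXOSC2 fell by 0.78. The 2 higher genes were XRN2, a 5′ to 3′ exonuclease, and DIS3, an exosome nuclease (log2 0.44, adjusted p = 0.0402). DIS3 was no longer called without NC replicate 3, OE CD51 ICD replicate 1 or OE CD51 ICD replicate 2 (adjusted p = 0.218, 0.0734 and 0.208). With the GC trend removed neither XRN2 nor DIS3 passed (adjusted p = 0.205 and 0.312).

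MYC (ENSG00000136997, chr8:127735434-127741434) was itself lower, at 140, 157 and 171 CPM in NC and 96.1, 105 and 94.9 CPM in OE CD51 ICD. The groups did not overlap (log2 -0.66 ± 0.09 SE, adjusted p = 2.44e-07). MAX, its dimer partner, rose from 29.4 ± 3.31 to 42.3 ± 0.760 CPM (log2 0.52, adjusted p = 1.38e-04). Of 9 tested genes of the MYC and MAX network 4 fell (44.4%) and 3 rose. The shares of all genes tested were 25.8% lower and 25.2% higher. With the GC trend removed 3 genes of the network fell and 3 rose, where 25.1% of all genes tested were lower and 24.6% higher. MXD3, a MAX partner, fell from 42.4 ± 3.68 to 14.3 ± 3.24 CPM (log2 -1.57, adjusted p = 2.93e-11), and exons of PRELID1 and RAB24 are among those that cover 40.4% of it. The other called genes of the network were MXD1 and MXD4, which rose, and MLX and MNT, which fell. MXD1, MXD3, MXD4 and MNT are all known as repressors that pair with MAX. The MXD4 call was lost without NC replicate 2 or OE CD51 ICD replicate 1 (adjusted p = 0.0513 and 0.0524), that of MLX without OE CD51 ICD replicate 1 (0.0521), and that of MNT without NC replicate 3 or OE CD51 ICD replicate 1 (0.135 and 0.108). With the GC trend removed the log2 fold change of MNT was -0.04 (adjusted p = 0.775).

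**Figure D4:**
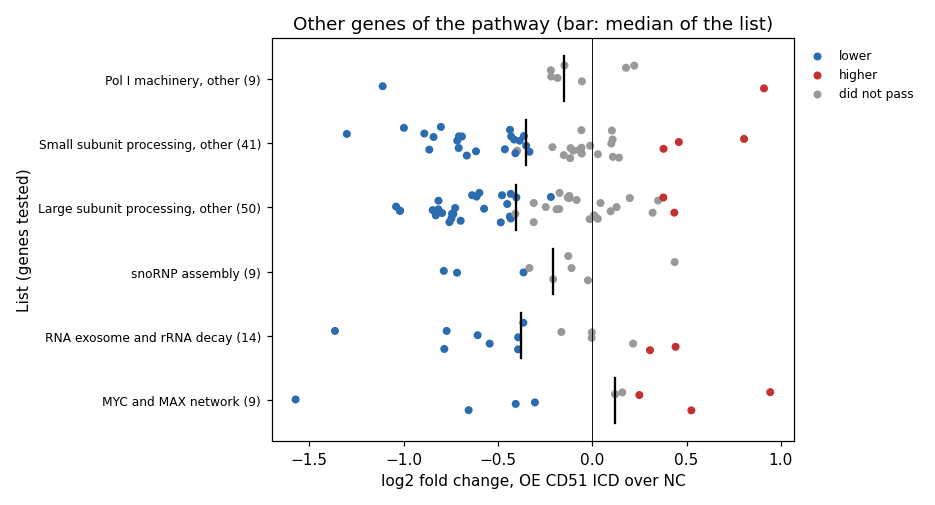
Points are the 132 tested genes of 6 further lists, by log2 fold change of OE CD51 ICD over NC on the horizontal axis; blue fell, red rose, grey did not pass, and black bars are list medians. Medians run from -0.41 in the large subunit list to 0.12 in the MYC and MAX network.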

How the data were processed

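RNA was sequenced from 3 NC and 3 OE CD51 ICD libraries of ARPE-19, made with a SMARTER mRNA kit per the labels' protocols. These name 2 RNA extraction reagents and not which library had which. The authors deposited whole-number gene counts and FPKM values, each with Ensembl IDs, symbols and coordinates. Per the submitters' processing notes the build was hg38; no aligner, counter or strand setting is given in the sources used here. All 58735 IDs and coordinates matched GENCODE 29. The deposited FPKM equal the counts over gene length and 1 constant per library.

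The tool for counts was edgeR 4.0.16 (R 4.3.3), with filterByExpr, TMM, glmQLFit and glmQLFTest, two-sided, with Benjamini-Hochberg adjustment over all 13787 genes tested and a call at an adjusted p under 0.05. Standard errors were derived from the F statistic. In simulated counts over 13787 genes with 200 changed, 48% of log2 changes of 0.5 and 77% of 1 were recovered, and 4.58% of calls were false. The simulation had no GC trend and a far smaller share of changed genes than the 51.0% called in these data. Its rates therefore do not carry over to the real comparison. GC content came from the longest transcript of each gene, for 99.96% of tested genes, and its trend in each library was removed as a loess offset (span 0.3).

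The members and gene lists were chosen with earlier results of these data known. Every member was to be named. Library values were given for the 3 largest called changes per role, for called members against the leading direction, and for NPM1, NCL, FBL, UBTF and POLR1A. From each further list the rule took the 2 largest called changes in its leading direction and 1 in the other among genes averaging 5 CPM or more, besides MYC and MAX. Other further-list genes were named after their values were seen. Alternatives were other scalings, filters and gene sets, DESeq2 1.42.0, limma 3.58.1 (voom, and on log2 of FPKM with a pseudocount of 1 or 0.1), each replicate left out, a replicate block, and removal of GC or length trends. Tables and plots used Python 3.11.15, pandas 2.3.3, NumPy 2.4.6 and matplotlib 3.10.9.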

Additional observations from a re-analysis of the deposited data

How the results depend on the processing

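Of the 26 genes lower, 21 stayed past the threshold and lower in every alternative run, as TAF1D stayed higher wherever it was fitted. The number lower ran from 22 to 30 over 22 alternatives and the number higher from 0 to 2: it was 0 without chromosome 11, where TAF1D lies and was not fitted, 2 with the length trend removed, and 1 to 2 with a replicate left out. No called fold change among the 43 genes changed sign; among the further genes, NOP53 went from -0.22 to 0.03 with the GC trend removed. The median log2 fold change was -0.32 with upper-quartile scaling, -0.43 with library size as the only scaling, -0.33 in limma on log2(FPKM + 1), -0.31 in the same without a filter, -0.43 with the GC trend removed, -0.41 with the replicate block and the GC trend removed, and -0.39 to -0.32 with a replicate left out. Higher genes in the further lists numbered 14 with upper-quartile scaling, 7 with library-size scaling and in limma on log2(FPKM + 1) or log2(FPKM + 0.1), 5 without a filter there, 5 with the GC trend removed and with that and the replicate block, and 6 to 12 with a replicate left out; the cause was not tested. Same-numbered libraries did not deviate together (r = -0.05, 0.00 and 0.05), and not every library correlated best with its own number. With the replicate block 26 genes were lower and 1 higher, as without it. Low counts limit UTP15, LTV1 and NOP2, and unknown handling of shared reads limits NOP2 and PPAN.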
